A study of Danio rerio with 10 samples.

Results

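The proteasome genes of zebrafish embryos (Danio rerio) were taken by symbol: every protein-coding gene whose name begins with psma, psmb, psmc, psmd, psme, psmf or psmg was a member, which gave 53 of the 32266 genes in the table. Of these, 21 were counted by name to the core particle (psma and psmb), 23 to the regulatory particle (psmc and psmd) and 9 to the remaining families (psme, psmf and psmg). The rule takes names, not complexes, so it also took in psmc3ip, whose protein binds PSMC3 and acts in meiotic recombination in mammals and is no subunit of the proteasome. By its name psmc3ip is counted among the 23 regulatory particle members throughout, as are the genes of the chaperones psmd5, psmd9 and psmd10. No gene named psmd2 was among the members. The double mutants carried homozygous mutations in both rbpms2a and rbpms2b, the zebrafish pair of genes for the RNA-binding protein Rbpms2, and were picked out by eye. Their control siblings are labelled wt, and since they were sorted by appearance some of them may carry the mutations. The mutants gave 5 libraries and so did the controls, with the numbers 1, 2, 3, 4 and 6 in both. Polyadenylated RNA for a library was taken from 10 pooled whole embryos, 33 hours after fertilization. No label says that the pools came from separate clutches, so the p-values measure the spread between these pools. The strain and the mutated alleles are not given in the labels.

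The proteasome is the main machine for breakdown of ubiquitin-tagged proteins in the cytosol and nucleus. Its core particle is a barrel of stacked rings in which alpha subunits form the gate and beta subunits hold the cutting sites, and its regulatory particle, built from ATPase (psmc) and non-ATPase (psmd) subunits, binds, unfolds and feeds in the tagged protein. Subunits enter the complex in fixed proportions, and their genes are known in yeast and mammals to be switched on together, in mammals by the transcription factor NFE2L1. In whole embryos every tissue contributes to these values, and fewer cells of a type cannot be told apart from less RNA per cell.

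Total counts ran from 21.5 M to 35.99 M per library (M, 1000000 counts), and 20802 genes were abundant enough to be tested. In the mutants rbpms2a lay between 2.42 and 3.91 CPM (counts in 1000000, after scaling), against 4.25 to 7.05 CPM in controls, while rbpms2b lay between 11.98 and 22.2 CPM in mutants, against 10.3 to 18.3 CPM in controls. The ranges of rbpms2a did not overlap. A mutated gene can still be transcribed, so the level of rbpms2b does not check the genotype. Markers of heart muscle, skeletal muscle, red blood cells, leukocytes and germ cells were detected, and the ranges of the summed levels of those tested overlapped between the groups. Of the 5 germ cell markers 3 were tested, and dnd1 and tdrd7a were not. Those 3 summed to 1.80 to 3.62 CPM in mutants and 2.05 to 3.22 CPM in controls. Libraries of the same number resembled each other in both groups, and a fit with the number as a block is given where it bears on a result.

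Levels between genes are compared here per length, as FPKM (fragments per kilobase of gene and per 1000000 fragments), with the SD over 5 libraries. Among the 9 psma genes, psma3 was the highest, at 186 ± 18.5 FPKM in mutants and 199 ± 19.2 FPKM in controls (n = 5 each). The alpha ring has a seat that PSMA7 fills in mammals, with PSMA8 as its testis form, and in these embryos psma8 was at 169 ± 13.9 FPKM in mutants and 162 ± 10.6 FPKM in controls (n = 5 each). The log2 fold change of psma8, mutants over controls, was 0.06 in FPKM but -0.03 in counts. At the other end of the family psma6l gave 1 to 8 counts in a library.

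The psmb1 to psmb7 genes lay in a narrow band. The highest was psmb7, the trypsin-like cutting subunit, at 213 ± 28.0 FPKM in mutants and 215 ± 26.1 FPKM in controls (SD, n = 5 each). The lowest was psmb6, the caspase-like subunit, at 107 ± 21.1 FPKM in mutants and 119 ± 20.6 FPKM in controls (SD, n = 5 each), so that the control means of these 7 genes spanned 1.80-fold. Psmb5, the chymotrypsin-like subunit, lay between them at 135 ± 10.2 FPKM in mutants and 139 ± 8.81 FPKM in controls (SD, n = 5 each). The log2 fold change of psmb6, mutants over controls, was -0.16 in FPKM but -0.05 in counts.

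The inducible beta genes had very few counts. In mammals PSMB8, PSMB9 and PSMB10 replace the constitutive cutting subunits in immune cells, and PSMB11 does so in the thymus. Psmb8a gave 1 count over all mutant libraries and 2 over all control libraries. Psmb10 gave 13 counts over the mutants and 11 over the controls, with 0 in both libraries of number 4. Psmb11b gave 0 counts over the mutants and 1 over the controls. Psmb9a gave 5, 4, 10, 10 and 0 counts in mutants 1, 2, 3, 4 and 6, against 7, 4, 10, 13 and 0 counts in the controls of the same numbers. Both libraries of number 6 were thus at 0 for psmb9a, which allows up to 0.103 CPM in mutant 6 and 0.139 CPM in control 6 (3 counts in the library total, counting error only). Deposited FPKM values of genes without counts were not 0, so these genes are described by counts alone. Psmb12 was the member of this group that passed the filter on low counts, at 0.373 ± 0.126 CPM in mutants and 0.356 ± 0.130 CPM in controls (SD, n = 5 each). Leukocyte markers were present in the same pools, with 8 of 8 marker genes tested and a summed level of 127 to 156 CPM in mutants and 123 to 158 CPM in controls.

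The ATPase genes of the regulatory particle differed from each other by up to 2.66-fold in controls. Psmc5 was the highest, at 109 ± 10.9 FPKM in mutants and 110 ± 10.1 FPKM in controls, and psmc1b the lowest, at 41.1 ± 2.90 FPKM in mutants and 41.5 ± 2.71 FPKM in controls (SD, n = 5 each). Of the non-ATPase genes psmd6 was the highest, at 110 ± 9.70 FPKM in mutants and 112 ± 5.26 FPKM in controls (SD, n = 5 each). Psmd14, whose protein removes ubiquitin chains from the substrate, was at 68.8 ± 5.50 FPKM in mutants and 69.2 ± 5.25 FPKM in controls (SD, n = 5 each). The lowest of the family was psmd10, at 12.6 ± 2.37 FPKM in mutants and 13.2 ± 0.668 FPKM in controls (SD, n = 5 each). Psmd10, psmd9 and psmd5 code for chaperones that build the ATPase ring and leave it again, and these 3 held the lowest places of the psmd family. Psmc3ip was at 14.1 ± 2.12 FPKM in mutants and 12.6 ± 2.42 FPKM in controls (SD, n = 5 each).

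The activators, which cap the core in place of the regulatory particle, covered a wide range. Psme3, the nuclear activator, was at 39.9 ± 4.01 FPKM in mutants and 38.9 ± 2.03 FPKM in controls (SD, n = 5 each). Psme1 and psme2, which in mammals are induced by interferon and form a shared ring, were both below 1 FPKM on average in each group. Psme2 was the lowest activator, at 0.616 ± 0.128 FPKM in mutants and 0.542 ± 0.166 FPKM in controls (SD, n = 5 each). Psmf1, a gene for a core-binding inhibitor, was at 7.12 ± 0.488 FPKM in mutants and 7.24 ± 0.985 FPKM in controls (SD, n = 5 each). The assembly chaperones, which help the alpha ring form, ran from psmg2, at 12.7 ± 1.88 FPKM in mutants and 13.1 ± 1.70 FPKM in controls, to psmg3, at 22.0 ± 2.14 FPKM in mutants and 21.8 ± 3.78 FPKM in controls (SD, n = 5 each).

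**Figure D1:**
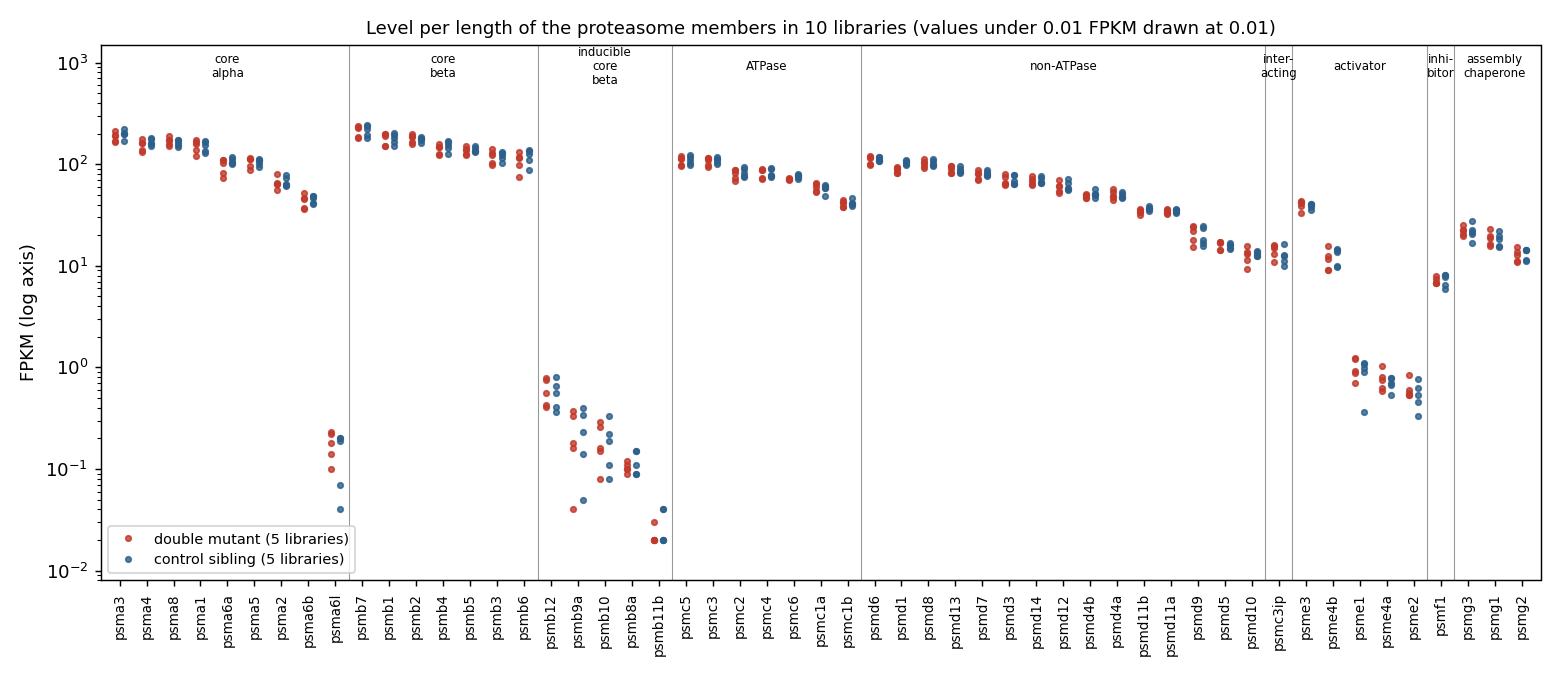
Level per length (FPKM, log axis) of all 53 members, ordered by family and then by control level. Points are single libraries, double mutants left and control siblings right of each name; the other psma and psmb genes and the ATPase genes lie far above 1 FPKM, while psma6l, the inducible beta genes, psme1, psme2 and psme4a lie near or below 1 FPKM in both groups.

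Duplicated genes serve 5 of the subunits, and the copies were used unequally in some of them. Psma6a stood at 2.19 ± 0.148 times the FPKM of psma6b in mutants and 2.39 ± 0.0854 times in controls (SD, n = 5 each), with 1.99 to 2.36 in mutants and 2.26 to 2.46 in controls. This ratio gave the smallest of the 5 p-values between the groups, with an exact two-sided permutation p of 0.0317 and a p of 0.159 after Benjamini-Hochberg (BH) adjustment over the 5 ratios. Psmc1a stood at 1.44 ± 0.0556 times psmc1b in mutants and 1.39 ± 0.0861 times in controls (SD, n = 5 each). The psmd4 copies, for a ubiquitin receptor, were near parity, with psmd4a at 1.03 ± 0.105 times psmd4b in mutants and 0.960 ± 0.0924 times in controls (SD, n = 5 each). The psmd11 copies were near parity too, at 0.995 ± 0.0464 in mutants and 0.955 ± 0.0209 in controls (SD, n = 5 each). Of the pair for the large nuclear activator PA200, psme4b stood at 15.5 ± 3.36 times psme4a in mutants and 18.5 ± 5.46 times in controls (SD, n = 5 each). The adjusted p of the last 4 ratios ran from 0.317 to 0.349 by the exact permutation test. Counts of psmd4a and psma5 were fractional in all 10 libraries, so another locus shares some of their reads and their levels are uncertain. Psmd9 was fractional in 9 libraries and psmb5 in 8.

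The series asks which genes differ in level when both rbpms2 genes are mutated. In the edgeR quasi-likelihood test, without a block, 48 members passed the filter on low counts: 16 of the core, 23 of the regulatory particle and 9 of the rest. None of the 48 had a BH adjusted p under 0.05, where 0.00481% of all tested genes did. At an unadjusted p under 0.05 there were 2 members, psmd1 and psmc6, both lower in mutants, against 1.95% of all tested genes in either direction and 0.654% lower in mutants. With a block on replicate number, edgeR again called 0 of the 48 after adjustment (0.255% of all tested genes), and DESeq2 and limma-voom called 0 with and without the block.

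The estimates were small and narrow. Of the 48 tested members 45 had a 95% interval of the log2 fold change that lay wholly between -0.5 and 0.5, against 65.6% of all tested genes. Psmb12, psme1 and psme2, the scarcest of the tested members, were the exceptions. The 2 shares were not matched for level: 43 of the 48 members were above 10 CPM. The median SE was 0.08 for the members and 0.14 for all tested genes. The median log2 fold change, mutants over controls, was -0.05 over the 16 core members and -0.04 over the 23 regulatory particle members, while that of all tested genes was 0.002. An estimate under 0 was found for 14 of 16 core members, 18 of 23 regulatory particle members and 4 of the 9 others, and for 49.3% of all tested genes. These genes shared their variation from library to library, so that their signs are not independent of each other.

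**Figure D2:**
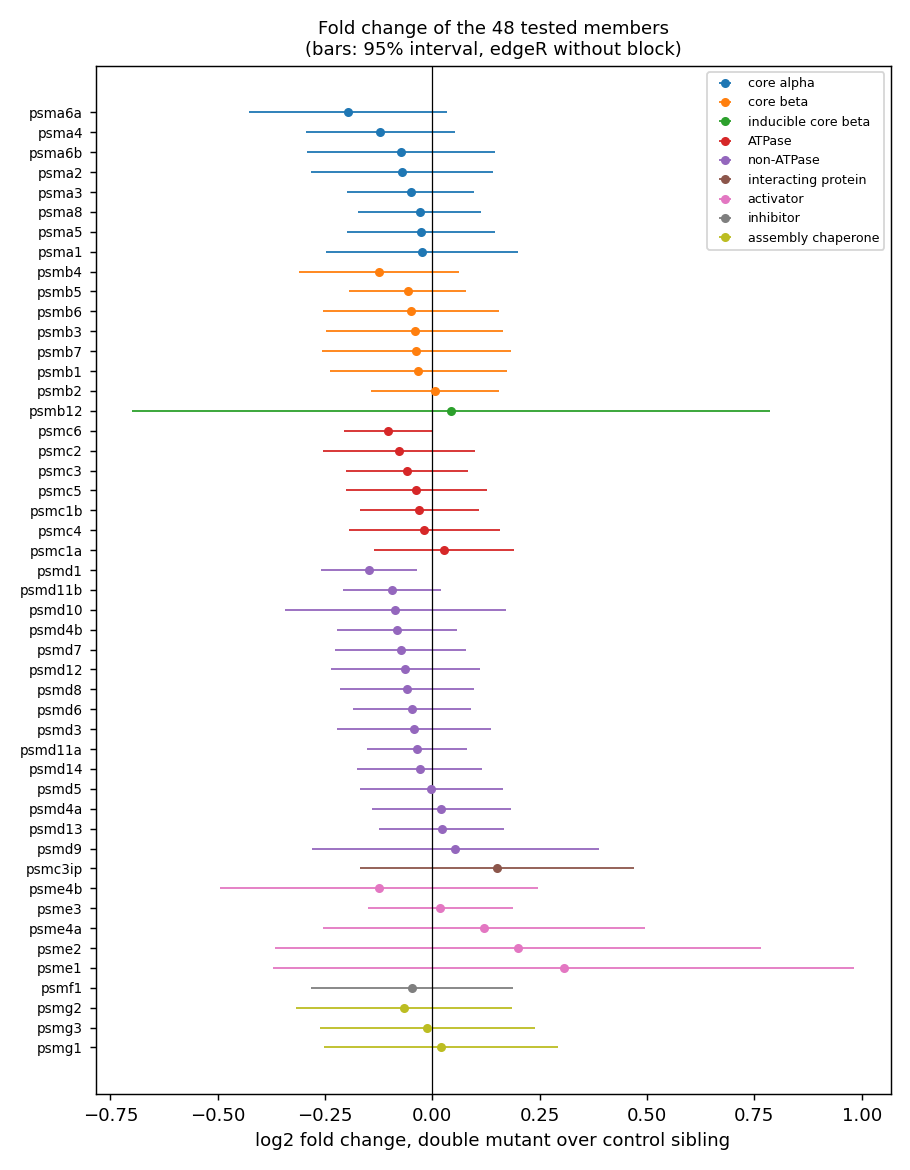
Log2 fold change of the 48 tested members, double mutants over control siblings, from the edgeR fit without a block, with 95% intervals, grouped by family. Most points lie just left of 0. The intervals of psmd1 and psmc6 end below 0, that of psmc6 at -0.0003. Psmb12, psme1 and psme2 have the widest intervals.

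Psmd1 codes for the largest scaffold subunit of the regulatory particle. It was at 244, 247, 230, 247 and 240 CPM in mutants 1, 2, 3, 4 and 6, against 253, 272, 261, 273 and 278 CPM in the controls of the same numbers. The groups did not overlap, and every mutant library lay below every control library. Its log2 fold change was -0.15 (SE 0.0514, edgeR unadjusted p 0.0140, adjusted p 1.00), lower in 5 of 5 pairs. Its p by exact permutation, which leaves the pairs aside, was 0.00794, which no 5 against 5 comparison can go below. Every gene whose groups do not overlap gets this p, so it restates the lack of overlap and adds no further evidence. On the deposited FPKM scale it was at 93.5, 92.2, 86.6, 81.7 and 81.9 FPKM in the mutants and 100.2, 108, 97.02, 106 and 110 FPKM in the controls, again without overlap. Limma-trend on log2(FPKM + 1) gave -0.25 for psmd1 (unadjusted p 0.00124, adjusted p 1.00), a log2 change larger than that in the counts by 0.11. Its counts were whole in 3 of 10 libraries, so another locus shares some of its reads and its level is uncertain.

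Psmc6 codes for an ATPase of the ring that unfolds substrates. It was at 94.7, 97.9, 97.5, 101 and 99.0 CPM in mutants 1, 2, 3, 4 and 6, against 102, 106, 108, 107 and 103 CPM in the controls of the same numbers. Here too the highest mutant library lay below the lowest control library, with a gap smaller than the range within either group. Its log2 fold change was -0.10 (SE 0.0475, edgeR unadjusted p 0.0494, adjusted p 1.00). Other settings without the block put the unadjusted p of psmc6 on both sides of 0.05. In edgeR it was 0.0745 without the filter on low counts and 0.0960 with library totals only. It was 0.00978 in DESeq2 and 0.0498 in limma-voom. The exact permutation p was 0.00794, which again only restates the lack of overlap. Ranges that do not overlap were found for these 2 of 48 members, both lower in mutants. Of all tested genes 0.466% had such ranges in either direction and 0.154% lower in mutants. On the FPKM scale the ranges of psmc6 overlapped.

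Psma6a, an alpha ring gene, had the largest negative estimate of the tested members. It was at 82.0, 83.4, 78.2, 55.3 and 63.9 CPM in mutants 1, 2, 3, 4 and 6, against 80.4, 89.6, 86.6, 79.6 and 79.4 CPM in the controls of the same numbers. Mutants 4 and 6 lay far below the rest, while mutants 1 and 2 lay within the range of the controls. The log2 fold change was -0.20 (SE 0.106, edgeR unadjusted p 0.0875, adjusted p 1.00), and it was -0.11 without mutant 4 and -0.26 without mutant 2.

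Psma4, another alpha ring gene, is the nearest member to a targeted gene: it lies 3 genes from rbpms2a in the gene order of the RefSeq assembly GRCz12tu, and it is the only one of 52 placed members within 100 genes of rbpms2a or rbpms2b. Whether alleles of psma4 differ between the groups along with rbpms2a was not tested. Psma4 was at 128, 142, 128, 106 and 113 CPM in mutants 1, 2, 3, 4 and 6, against 128, 145, 141, 126 and 131 CPM in the controls of the same numbers. The groups overlapped, although the mutant was the lower library in 5 of 5 pairs, by as little as 0.003 log2 units in pair 1 and by 0.25 in pair 4. The log2 fold change was -0.12 (SE 0.0803, edgeR unadjusted p 0.158, adjusted p 1.00), and it was -0.07 without mutant 4 and -0.18 without mutant 2.

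Psmb4, a beta ring gene, was at 114, 125, 113, 96.8 and 101 CPM in mutants 1, 2, 3, 4 and 6, against 120, 132, 129, 115 and 102 CPM in the controls of the same numbers. The ranges overlapped widely, and the mutant was again the lower library in 5 of 5 pairs. Its log2 fold change was -0.12 (SE 0.0858, edgeR unadjusted p 0.171, adjusted p 1.00), and it was -0.08 without mutant 4 and -0.18 without mutant 2. With psma4, psmb4, psmc6, psmd1 and psmd11b, 5 of 48 tested members were lower in the mutant of all 5 pairs, and 5.01% of all tested genes were.

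With the replicate number as a block, 7 of the 48 had an unadjusted p under 0.05, all lower in mutants: psma4, psma6a, psmb4, psmc6, psmd1, psmd11b and psme4b. Of all tested genes 10.5% did so in either direction and 4.84% lower in mutants. The lowest adjusted p among the 48 in that edgeR fit was 0.160, for psmd1.

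Members outside the core and regulatory particle gave estimates on both sides of 0. The 2 largest positive estimates were those of psme1 and psme2, at 0.31 (SE 0.312, edgeR unadjusted p 0.346) and 0.20 (SE 0.261, edgeR unadjusted p 0.459). Single libraries decided their size: without control 4 they were 0.08 and 0.05, and psme2 was also 0.05 without mutant 2. Psme1 was at 0.668, 0.797, 0.644, 0.514 and 0.626 CPM in mutants 1, 2, 3, 4 and 6, against 0.493, 0.610, 0.633, 0.198 and 0.731 CPM in the controls of the same numbers. Control 4, with 7 counts, was the lowest library, and the ranges overlapped. Psme2 was at 0.779, 1.24, 0.870, 0.80 and 0.834 CPM in the mutants, against 0.767, 0.915, 0.663, 0.480 and 1.17 CPM in the controls, with mutant 2 as the highest library of all. Counts this low, 17 to 39 per library for psme2, leave all but large changes undetectable. The remaining families, by their member with the smallest p, gave -0.05 (SE 0.108, edgeR unadjusted p 0.666) for the inhibitor gene psmf1 and -0.07 (SE 0.116, edgeR unadjusted p 0.582) for the chaperone gene psmg2. Psmf1 was at 7.18, 8.03, 8.47, 7.46 and 7.54 CPM in the mutants, against 7.01, 8.40, 8.78, 9.03 and 6.67 CPM in the controls. Psmg2 was at 11.1, 13.6, 12.05, 9.54 and 10.0 CPM in the mutants, against 12.8, 12.8, 12.7, 10.3 and 10.3 CPM in the controls.

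**Figure D3:**
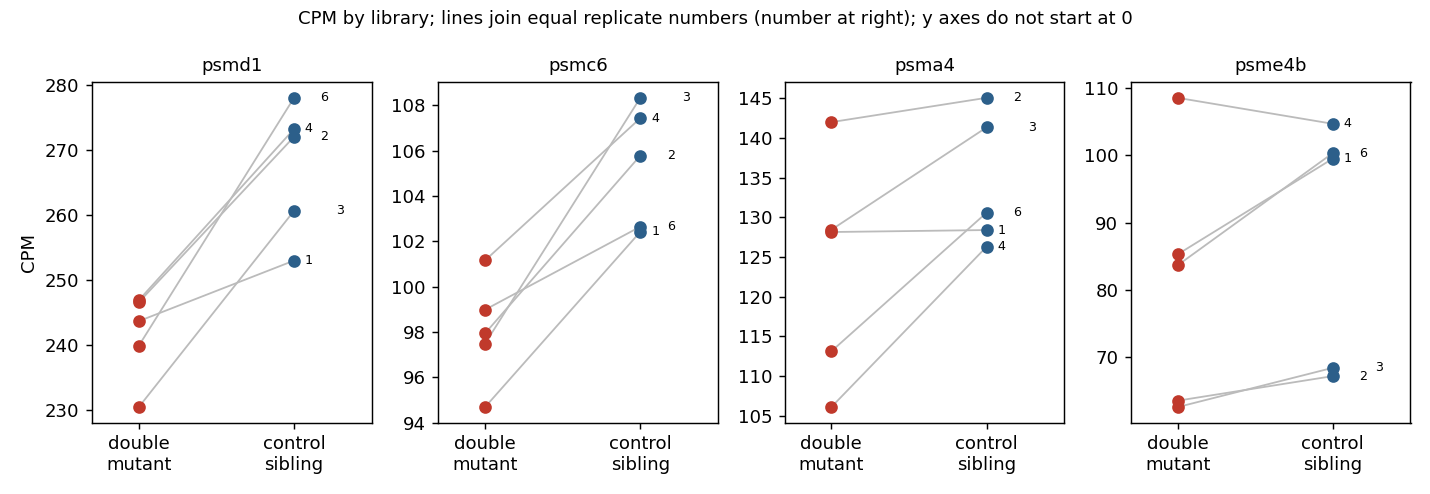
CPM of psmd1, psmc6, psma4 and psme4b in each library, double mutants left and control siblings right, with lines joining libraries of the same number; the axes do not start at 0. Psmd1 and psmc6 show no overlap between the groups, psma4 is lower in the mutant library on every line, by unequal amounts, and psme4b is low for numbers 2 and 3 and highest for number 4 in both groups.

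The summed levels of both particles differed more between libraries of a group than between the group means. This did not hold for psmd1 and psmc6 taken singly. The 16 tested core members summed to 1718, 1863, 1731, 1423 and 1517 CPM in mutants 1, 2, 3, 4 and 6, against 1710, 1850, 1808, 1648 and 1566 CPM in the controls of the same numbers. Number 2 was the highest in both groups, and numbers 4 and 6 held the lowest places in both. The mean sum was 1650 ± 178 CPM in mutants and 1717 ± 116 CPM in controls (SD, n = 5 each), which puts the mutants at 96.1% of the controls. The 23 regulatory particle members summed to 2179, 2341, 2204, 1980 and 2027 CPM in the mutants, against 2156, 2349, 2298, 2186 and 2154 CPM in the controls. Their mean was 2146 ± 145 CPM in mutants and 2229 ± 89.2 CPM in controls (SD, n = 5 each), or 96.3% of the controls. Both differences are smaller than the SD of either group.

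**Figure D4:**
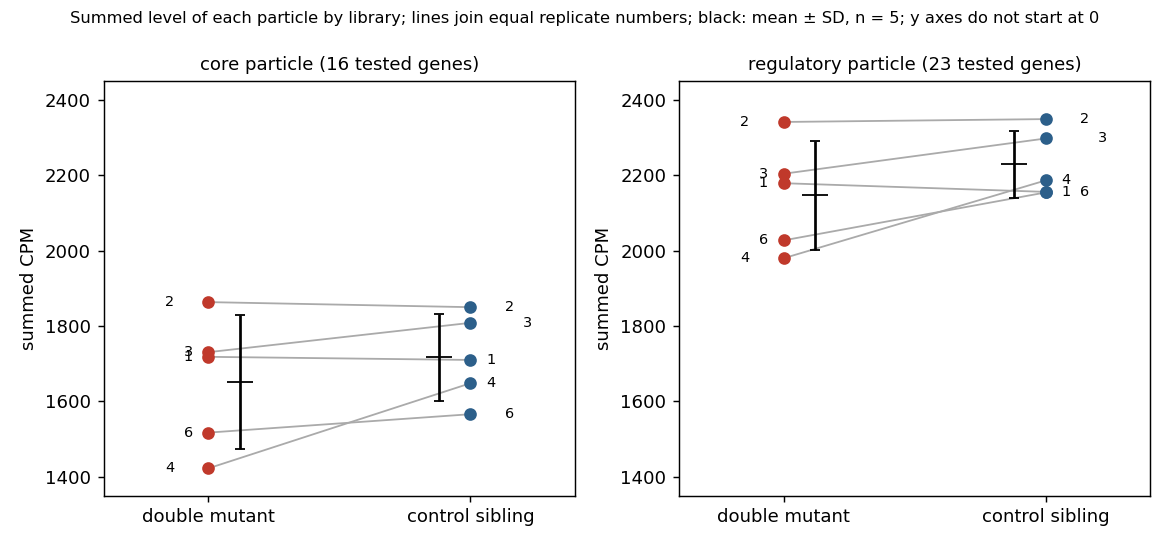
Summed CPM of the tested core members (left) and regulatory particle members (right) in each library, double mutants left and control siblings right in each panel, with lines joining equal numbers and black marks for the mean and SD (n = 5); the axes do not start at 0. Number 2 is highest in both groups, and the line of number 4 has the steepest slope, with the core of mutant 4 at 1423 CPM and that of control 4 at 1648 CPM.

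The members moved together across libraries. Mutant 2 was the highest mutant library for 14 of 16 core members and 17 of 23 regulatory particle members, and mutant 4 the lowest for 14 and 19 of them. Of all tested genes 24.5% were highest in mutant 2 and 27.5% lowest in mutant 4. Among controls, control 2 was the highest for 11 of 16 core and 11 of 23 regulatory particle members, and control 6 the lowest for 11 and 9, where 17.1% of all tested genes were highest in control 2 and 23.8% lowest in control 6. The regulatory particle members were less uniform among controls, with 8 of 23 highest in control 3 and 8 of 23 lowest in control 1. Within pairs, the mutant core sum was at 100.5, 100.7, 95.7, 86.3 and 96.9% of its control for numbers 1, 2, 3, 4 and 6, and the regulatory particle sum at 101, 99.7, 95.9, 90.6 and 94.1%. The lower values in mutants thus rested on numbers 3, 4 and 6. In pair 4 all 16 core and all 23 regulatory particle members were lower in the mutant library, against 49.0% of all tested genes. In pair 1 these counts were 7 and 10. Without mutant 4 the median log2 fold change was -0.01 for both particles, and with the block and without pair 4 it was -0.003 for the core and -0.02 for the regulatory particle.

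Gene length moved with the same libraries. The tested core members are short, with a median deposited length of 945 bases, the regulatory particle members had a median of 1530, and all tested genes a median of 2076 bases. When all tested genes were split by length into 5 classes of equal size, the shortest class, which holds 15 of the 16 core members, had a median deviation from the group mean of 0.12 log2 units in mutant 2 and -0.11 in mutant 4, and of 0.06 in control 2 and -0.08 in control 6. The second class, which holds 13 of the 23 regulatory particle members, deviated by 0.06 in mutant 2 and -0.05 in mutant 4. All 23 regulatory particle members, from every class they fall in, deviated on average by 0.14 and -0.15. The longest class deviated the other way, by -0.10 in mutant 2 and 0.13 in mutant 4. The core members deviated on average by 0.17 in mutant 2 and -0.18 in mutant 4, and by 0.06 in control 2 and -0.14 in control 6. Within pair 4 the median log2 ratio, mutant over control, was -0.09 in the shortest class, -0.02 in the second and 0.06 in the longest. For the core members this median was -0.21, and for the regulatory particle members -0.14. A fit with a length correction for each library, chosen after these values were seen, gave a median log2 fold change of -0.06 for both particles. Without the correction it was -0.05 for the core and -0.04 for the regulatory particle. In edgeR 0 of 48 members passed the adjusted threshold (1 of 20802 tested genes), and 5 had an unadjusted p under 0.05 (439 of 20802). With correction and block 0 of 48 passed (101 of 20802), and 13 had an edgeR unadjusted p under 0.05 (2379 of 20802). Without the correction 2 members had such a p, and 7 with the block. The part of length in the shared variation between libraries was not tested.

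**Figure D5:**
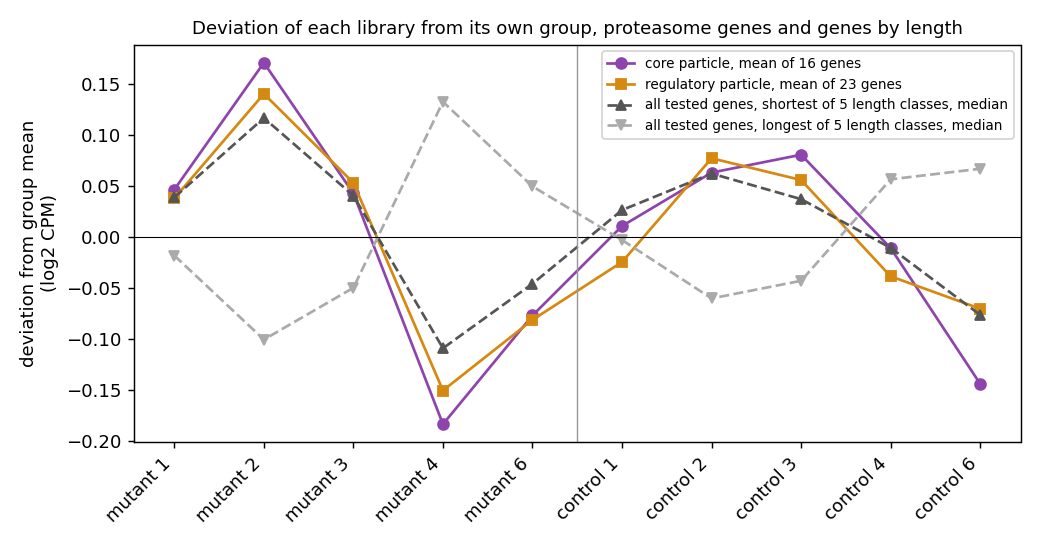
Deviation of each library from the mean of its own group (log2 CPM), for the core and regulatory particle members (solid lines, mean over genes) and for the shortest and longest of 5 length classes of all tested genes (dashed lines, median over genes), double mutants left of the vertical line and control siblings right of it. Among the mutants both particles and the shortest class are highest in mutant 2 and lowest in mutant 4, among the controls the regulatory particle and the shortest class differ in sign in control 1 and the core is highest in control 3, and the longest class runs the other way.

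Not every member followed the shared course. As a description over 10 libraries that share their preparation and numbers, the deviations of 14 of 16 core and 14 of 23 regulatory particle members correlated with the mean course of these 39 genes at a Pearson r above 0.8, and 9.03% of the 20754 other tested genes did. Each of the 39 genes is part of that mean, which raises its own r, and the other genes are not, so these shares are not measured alike. Psmb3, of the beta ring, lay closest to the mean course (r = 0.99). Psmd1 and psmc6, whose groups did not overlap, ran apart from it (r = -0.23 and -0.16), and neither was low in mutant 4. Psme4b ran against it (r = -0.84): it was at 85.3, 63.6, 62.6, 108 and 83.6 CPM in mutants 1, 2, 3, 4 and 6, against 99.5, 67.2, 68.5, 105 and 100.3 CPM in the controls of the same numbers. Numbers 2 and 3 were low and number 4 was high in both groups. At 7180 bases psme4b is the longest member. Its log2 fold change was -0.12 (SE 0.171, edgeR unadjusted p 0.481, adjusted p 1.00), with a range from -0.05 without mutant 3 to -0.25 without mutant 4. With the block it had an edgeR adjusted p of 0.327. With the block and without pair 4 it was the 1 member called, at -0.17 (edgeR adjusted p 0.0454), where 365 genes were called in all.

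The genes outside the proteasome whose course was most like that of the core and regulatory particle members were commd7, chchd10, higd2a, unc50 and dhrs1, with Pearson r between 0.98 and 0.99 over the 10 libraries. Commd7, the closest, was at 12.7, 16.8, 13.2, 8.34 and 9.11 CPM in mutants 1, 2, 3, 4 and 6, against 11.7, 13.3, 14.1, 11.2 and 9.06 CPM in the controls of the same numbers. Since commd7 was picked for its likeness to this course, its high values in number 2 and low values in numbers 4 and 6 follow from the choice.

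Partners of the proteasome outside the naming rule were read from a fixed list. Of 11 partners tested, 0 passed the adjusted threshold in edgeR in either direction, with and without the block, and 10 had estimates under 0 (49.3% of all tested genes), with a median log2 fold change of -0.07. Whether these genes vary together between libraries was not tested. None had an unadjusted p under 0.05 without the block. The smallest p belonged to ipo9, an importin that carries proteasomes into the nucleus, at 93.9, 87.2, 86.9, 81.5 and 90.7 CPM in mutants 1, 2, 3, 4 and 6, against 106, 96.7, 91.0, 88.5 and 102 CPM in the controls. The mutant was lower in 5 of 5 pairs, and the ranges overlapped (log2 fold change -0.14, SE 0.0649, edgeR unadjusted p 0.0554, and 0.00249 with the block). Pomp, the chaperone that matures the core, and adrm1, a ubiquitin receptor of the regulatory particle, are named for their roles. Pomp was at 70.9 ± 7.98 CPM in mutants and 78.5 ± 11.6 CPM in controls, and adrm1 at 89.4 ± 4.22 CPM in mutants and 91.5 ± 2.85 CPM in controls (SD, n = 5 each). Their log2 fold changes were -0.15 (edgeR unadjusted p 0.205) and -0.03 (edgeR unadjusted p 0.550).

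Of 20 genes known for control of proteasome genes, 0 passed the adjusted threshold in edgeR. Without the block 2 had an unadjusted p under 0.05 (1.95% of all tested genes), with a median log2 fold change of 0.02. Nfe2l1b, for the main activator of proteasome genes and named for that role, was at 32.5 ± 2.30 CPM in mutants and 32.3 ± 2.57 CPM in controls (SD, n = 5 each; log2 fold change 0.01, edgeR unadjusted p 0.881), and its sign turned without some single libraries. The smallest p was that of nfybb, for a subunit of the CCAAT-binding factor, at 9.35, 9.34, 9.66, 9.71 and 11.7 CPM in mutants 1, 2, 3, 4 and 6, against 7.94, 6.96, 8.72, 8.75 and 8.62 CPM in the controls. Every mutant library lay above every control library, with a log2 fold change of 0.28 (SE 0.101, edgeR unadjusted p 0.0162, adjusted p 1.00). Of 19 ubiquitin and shuttle genes 0 passed and, without the block, 0 had an unadjusted p under 0.05 (median log2 fold change -0.003). In that list ubb, a polyubiquitin gene, had the smallest p, at 195 ± 13.2 CPM in mutants and 176 ± 16.4 CPM in controls (SD, n = 5 each; log2 fold change 0.15, edgeR unadjusted p 0.0660), with the mutant higher in 5 of 5 pairs. With the block ubb had an edgeR unadjusted p of 0.00191 (adjusted p 0.160), where 10.5% of all tested genes had an unadjusted p under 0.05.

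Of 15 genes for the VCP unfolding machine 0 passed in edgeR. Without the block 0 had an unadjusted p under 0.05 and 13 had estimates under 0, where 49.3% of all tested genes did (median log2 fold change -0.03). The gene vcp itself is also 1 of the 20 genes known for control of proteasome genes. Whether the 15 genes vary together between libraries was not tested. Plaa, a VCP cofactor, was the gene with the smallest p, at 34.6 ± 2.77 CPM in mutants and 38.5 ± 2.52 CPM in controls (SD, n = 5 each; -0.15, edgeR unadjusted p 0.0594). Of 14 tested genes for antigen presentation 0 passed and, without the block, 0 had an unadjusted p under 0.05 (median 0.03). Stat1a, an interferon signalling factor, was at 11.7 ± 1.88 CPM in mutants and 13.3 ± 1.79 CPM in controls (SD, n = 5 each; -0.19, edgeR unadjusted p 0.155). Of 18 autophagy genes 0 passed and, without the block, 2 had an unadjusted p under 0.05, beside 1.95% of all tested genes (median 0.02). Map1lc3b, for a protein of the autophagosome membrane, was at 118 ± 7.68 CPM in mutants and 105 ± 5.25 CPM in controls, higher in 5 of 5 pairs (SD, n = 5 each; 0.17, edgeR unadjusted p 0.0149, adjusted p 1.00). With the block, edgeR called 0 genes of these lists. The edgeR unadjusted p in that fit was 0.00455 for plaa, 0.0244 for stat1a and 0.000638 for map1lc3b. With the block and without pair 4, where 365 genes were called in all, map1lc3b and ubb had edgeR adjusted p of 0.0382 and 0.0499.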

How the data were processed

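The authors deposited 1 table with expected counts per gene and library, log2(FPKM + 0.1) values and a gene length in bases (of other kind). The submitters' processing notes name STAR 2.5.3a, RSEM 1.3.0, BWA 0.7.12-r1039, GRCz10 and danRer10, with no role. No source used here gives the annotation or strand setting, so overlapping and antisense genes are uncertain. Of the deposited expected counts 17.8 to 21.6% per library were not whole, and log2 values were turned back to FPKM.

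Counts were rounded and analysed in R 4.3.3 by edgeR 4.0.16 (filterByExpr, TMM, robust quasi-likelihood test, Benjamini-Hochberg over 20802 genes, threshold 0.05). A positive log2 fold change means higher in double mutants. Alternatives were DESeq2 1.42.0, limma 3.58.1, other scalings and filters, libraries left out, a block on replicate number and, added after the data were seen, a length correction. The edgeR fits were tested on simulated data with absolute log2 changes of 1 and 2. Changes as small as those estimated for the members were not simulated. Permutation tests were exact and two-sided. Library totals were 21.5 M to 35.99 M counts, and SEs of the 43 members above 10 CPM were 0.0475 to 0.171. All 45 library pairs differed beyond sampling noise (chi-square per degree of freedom at least 5.66).

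Same-numbered libraries deviated together from their group means (r 0.54 to 0.60 in 5 of 5 pairs, against -0.47 to 0.51 for unequal numbers), so the numbers were read as pairs; no label says what they stand for. Members and lists were chosen with earlier results of these data known. The rule for named genes took the smallest p per family and per list, members whose groups did not overlap and the 2 largest estimates in each direction. Psma4, psme4b, pomp, adrm1 and nfe2l1b were added for position or role or after their values were seen.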

Additional observations from a re-analysis of the deposited data

Results flagged for a closer look

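Single libraries stood far from the other 4 of their group in 5 of 58 groups examined, where chance flags about 2.9. Psme2 was at 1.24 CPM in mutant 2, against 0.779 to 0.870 CPM in the other mutants. Pomp was at 58.3 CPM in control 6, against 81.7 to 87.8 CPM in the other controls. Nfybb was at 11.7 CPM in mutant 6, against 9.34 to 9.71 CPM in the other mutants, and stat1a at 15.0 CPM in mutant 3, against 10.5 to 11.4 CPM. Nfe2l1b was at 27.8 CPM in control 1, against 32.3 to 33.9 CPM in the other controls.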

How the results depend on the processing

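The medians of both particles stayed below 0 in all 29 alternatives, from -0.10 to -0.003 for the core and from -0.09 to -0.01 for the regulatory particle. The count of members past the adjusted threshold was 0 except with the replicate block and without pair 4, where it was 1, psme4b (-0.17, edgeR adjusted p 0.0454; range over its alternatives 0.0454 to 1.00). Of the 12 members tracked, 10 kept their sign. Over libraries or pairs left out, psmb12 ran from -0.19 to 0.23 (block without pair 2 -0.12), psmf1 from -0.10 to 0.016, nfe2l1b from -0.038 to 0.048 over libraries and from -0.037 to 0.055 over pairs under the block (-0.0040 without pair 3) and ddx4 from -0.032 to 0.17 (block without pair 1 -0.013). The count over all genes, 1, was 6 with DESeq2, 2 and 0 with limma-trend at a pseudocount of 1 and 0.1, 53 with the replicate block in edgeR, 90 and 58 with the block in DESeq2 and limma-voom, and 101 with block and length correction. It ran from 0 to 3 without single libraries, and under the block was 17, 17, 21, 365 and 79 without pair 1, 2, 3, 4 and 6. The cause was not tested. The call of myh6 ended without mutant 3 (adjusted p 0.0632), without control 2 (0.0621) and in limma-trend at a pseudocount of 0.1 (0.0684). Under the block with all pairs no call of a member changed. Psmb12, psme1 and psme2 rest on 5 to 39 counts per library, which limits what can be seen.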

Other observations

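Of the marker lists, heart muscle held the gene that passed the adjusted threshold without the block, myh6. That was 1 of 7 genes, and myh6 was also the 1 gene that makes up the 0.00481% of all tested genes. With the block nppa passed as well (2 of 7 genes, against 0.255% of all tested genes), and both were lower in mutants. The lists were chosen with earlier results of these data known, so these shares do not test whether heart genes are called more often. The median log2 fold change of the 7 was -0.01. Myh6, an atrial myosin heavy chain, was at 7.26 ± 1.25 CPM in mutants and 15.5 ± 1.00 CPM in controls (SD, n = 5 each), with an edgeR adjusted p of 0.0112 and a log2 fold change of -1.10. The call of myh6 ended without mutant 3 (edgeR adjusted p 0.0632) and without control 2 (edgeR adjusted p 0.0621). Nppa, a heart peptide hormone, was at 7.52 ± 4.73 CPM in mutants and 11.05 ± 4.40 CPM in controls (SD, n = 5 each; log2 fold change with the block -0.63, edgeR adjusted p 0.0157). The other lists had 0 calls in edgeR with and without the block with all pairs. Leukocyte markers had a median log2 fold change of 0.07 over 8 genes, with spi1b, a myeloid factor, at 3.65 ± 0.334 CPM in mutants and 3.14 ± 0.460 CPM in controls (SD, n = 5 each; edgeR unadjusted p 0.134). Red blood cell markers had a median of -0.08 over 5 genes, 4 of them with estimates under 0. The gene with the smallest p was the 1 with a positive estimate, alas2, an enzyme of heme synthesis, at 152 ± 14.8 CPM in mutants and 139 ± 14.6 CPM in controls (SD, n = 5 each; edgeR unadjusted p 0.139). With the block and without pair 4, alas2 had an edgeR adjusted p of 0.0408. Skeletal muscle markers had a median of -0.06 over 6 gene IDs, with mylpfa, a fast myosin light chain, at 3509 ± 624 CPM in mutants and 3773 ± 886 CPM in controls (SD, n = 5 each; edgeR unadjusted p 0.523). Germ cell markers had a median of 0.06 over 3 tested genes, with ddx4 at 1.25 ± 0.235 CPM in mutants and 1.20 ± 0.236 CPM in controls (SD, n = 5 each; edgeR unadjusted p 0.766). Psmc3ip, which is no proteasome subunit, gave a log2 fold change of 0.15 (SE 0.147, edgeR unadjusted p 0.323).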
